A study of Mus musculus with 9 samples.

Results

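The S100a genes encode small proteins of the EF-hand type, most of which bind calcium. They were followed in mouse neural stem cells in which Rad21 mRNA was lowered with short hairpin RNAs. The members are 8 S100a symbols of the count table: S100a1, S100a3, S100a4, S100a6, S100a10, S100a11, S100a13 and S100a16. The table holds 24503 gene rows, of which 14 are S100a symbols. The 8 were selected on their counts summed over all 9 libraries, and S100a3, the lowest, had 47. Of the 6 outside the list, S100a5 and S100a14 had 1 count each and 4 had 0.

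The cells were primary neural stem cells from the cortex of mouse embryos at stage E13.5, Phf2 flox/flox and otherwise wild type, grown on laminin with FGF (10 ng/mL) and EGF (20 ng/mL). One group received virus with hairpin shRad21_2, another virus with hairpin shRad21_1, and the controls virus with the non-targeting hairpin shNT. Every group therefore carried floxed Phf2 and a virus. Each group had 3 libraries, and the labels do not say whether these come from separate cultures or animals, so p-values reflect only how far these libraries differ, which can be technical.

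S100 proteins form dimers, and in most of them calcium binding opens a face through which they hold other proteins. They have no enzyme activity, and their known effects run through partners such as annexins, non-muscle myosin and the S100A6-binding protein CacyBP. Most S100a genes lie side by side in a cluster shared with genes of skin differentiation, and some are expressed in glia. Rad21 is the kleisin subunit of cohesin, the ring that extrudes chromatin loops and stops at sites bound by CTCF.

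All 8 members lie on chromosome 3 of mm10 (GENCODE M21) in 2 blocks. S100a1, S100a13, S100a16, S100a3, S100a4 and S100a6 span 113148 bases (chr3:90511034-90624181). S100a11 and S100a10 span 44156 bases (chr3:93520488-93564643), separated from the first block by 2896306 bases. RefSeq promoter windows (GRCm38.p6, 250 bases before to 50 after a start) were found for 7 of the 8 members, 11 windows in all. The 250 bases before the starts of S100a4 (chr3:90603520-90603769) and S100a6 (chr3:90612644-90612893) are shown because these neighbours had the largest falls of the 7 tested members under shRad21_2. The 42 bases between the divergent gene bodies of S100a1, on the minus strand, and S100a13, on the plus strand (chr3:90514393-90514434), are shown because both genes fell. All are the plus strand, 5′ to 3′, and capitals mark a motif match.
S100a4: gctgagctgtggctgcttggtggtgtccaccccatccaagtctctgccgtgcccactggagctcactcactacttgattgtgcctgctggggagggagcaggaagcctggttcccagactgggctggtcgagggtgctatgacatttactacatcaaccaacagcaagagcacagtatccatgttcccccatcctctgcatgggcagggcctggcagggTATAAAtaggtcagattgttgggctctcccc
S100a6: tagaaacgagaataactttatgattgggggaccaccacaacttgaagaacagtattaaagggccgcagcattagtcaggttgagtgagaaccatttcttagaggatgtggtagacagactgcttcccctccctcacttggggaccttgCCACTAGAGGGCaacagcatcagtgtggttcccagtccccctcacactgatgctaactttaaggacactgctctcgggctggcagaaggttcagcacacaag
S100a1 and S100a13 gap: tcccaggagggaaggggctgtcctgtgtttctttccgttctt

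Both strands were searched for the TATA box (TATAAA), the GC box (GGGCGG), the AP-1 motif (TGANTCA) and the core of the CTCF motif. The S100a4 promoter holds TATAAA at position -31 from the transcript start, a match found in 13.6% of the 32851 promoter windows of the same length. The S100a6 promoter holds the CTCF core at position -102, found in 2.43% of windows. The S100a11 window holds 3 GC boxes and 2 AP-1 matches, against 35.7% and 7.81% of windows with at least 1. Of the 4 windows of S100a3, 1 holds TATAAA (-52) and another a GC box (-116), and 1 of the 2 windows of S100a16 holds a GC box (-30) and an AP-1 match (-192). The other windows, including those of S100a1 and S100a13, hold no match. Matches are letters in these windows and say nothing of binding.

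Total counts ran from 34780003 to 46644607 per library. Levels are given in CPM, counts divided by library totals that were adjusted with edgeR's TMM method, on which 3 counts correspond to between 0.0664 and 0.088 CPM. Rad21 itself stood at 85.3 ± 5.19 CPM with shRad21_2, 180 ± 6.92 with shRad21_1 and 479 ± 45.0 with shNT (SD, n = 3 each). All 9 neural stem cell markers examined had counts, with a summed level of 6955 to 8026 CPM with shRad21_2, 6289 to 7311 with shRad21_1 and 7553 to 7958 with shNT. These sums held changes in both directions: under shRad21_2 Nes and Pax6 rose and Fabp7, Msi1 and Notch1 fell (edgeR adjusted p under 0.05, 55.6% of the 9, where 43.6% of all genes were called). Within their groups, shNT replicates 2 and 3 were close (chi-square per gene 3.19), as were shRad21_1 replicates 2 and 3 (2.18), against 23.0 to 69.9 for the other pairs. Replicate 1 of shNT (23.0 and 24.2) and of shRad21_1 (69.4 and 69.9) stood apart from these close pairs. The shRad21_2 pairs all lay between 47.7 and 56.8, above both values of shNT replicate 1. Results that rest on these 2 first libraries are also given with both set aside. Such fits keep only the close pair in shNT and in shRad21_1. The closeness can be technical, so smaller p-values in these fits are not stronger evidence.

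Under shRad21_2, the S100a genes went in opposite directions: S100a10 rose, S100a1, S100a13, S100a4 and S100a6 fell, and S100a16 and S100a11 did not pass the test. That is 1 member higher and 4 lower of the 7 that passed the filter on low counts, where edgeR called 43.6% of all 13560 genes, 21.1% higher and 22.5% lower. Of the 4, S100a6 passed that filter only through shRad21_1 and shNT libraries. Under shRad21_1, edgeR called 0 of the 7 members, where it called 9.82% of all genes, 4.19% higher and 5.63% lower. At an unadjusted p under 0.05 there were 4 (S100a1, S100a10, S100a11 and S100a13), and DESeq2 and limma-voom each called 0. Between the hairpins, S100a10 was higher and S100a1, S100a4 and S100a6 lower with shRad21_2 than with shRad21_1, 4 of 7, where 26.3% of all genes were called, 11.9% higher and 14.4% lower. The median log2 fold change of the 7 was -0.70 for shRad21_2 against shNT, 0.47 for shRad21_1 against shNT and -0.62 between the hairpins, and that of all genes 0.01, 0.0052 and -0.0022. The 2 comparisons with shNT share the shNT libraries. The members were chosen with these values known, so counts and p-values describe them and support nothing further.

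**Figure D1:**
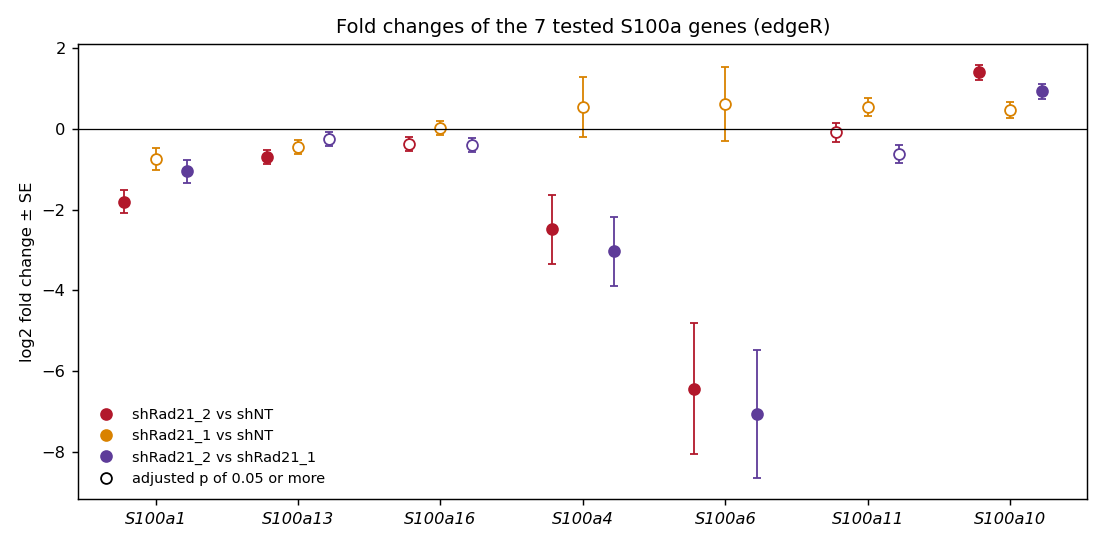
Log2 fold change with its standard error (SE) for the 7 tested S100a genes, in order along chromosome 3, for shRad21_2 and shRad21_1 each against shNT and for shRad21_2 against shRad21_1. Filled points have an edgeR adjusted p under 0.05; S100a6 lies lowest at -6.44 and -7.06, and S100a10 is the member above 0 with filled points.

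S100a10, which binds annexin A2 and carries channels, receptors and plasminogen activator to the cell surface, had the most counts of the family. It stood at 261, 212 and 248 CPM with shRad21_2, at 111, 136 and 131 CPM with shRad21_1, and at 61.0, 103 and 108 CPM with shNT. The 3 groups did not overlap, and shNT replicate 1 was the lowest library. S100a10 rose by a log2 fold change of 1.40 under shRad21_2 (SE 0.19, edgeR adjusted p = 3.62e-04). Its value of 0.47 under shRad21_1 (SE 0.19, edgeR adjusted p = 0.148) did not pass. Between the hairpins it differed by 0.93 (SE 0.19, edgeR adjusted p = 0.00685). With both libraries that stood apart set aside, its values against shNT were 1.18 for shRad21_2 (edgeR adjusted p = 2.66e-05) and 0.33 for shRad21_1 (edgeR adjusted p = 0.0797).

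S100a11, its neighbour in the distal block and a partner of annexin A1, was not called by edgeR in any of the 3 comparisons. Levels were 49.8, 29.5 and 36.8 CPM with shRad21_2, 55.2, 61.8 and 62.2 CPM with shRad21_1, and 26.7, 48.2 and 47.9 CPM with shNT. All shRad21_1 libraries lay above all shNT libraries, while shRad21_2 and shNT overlapped. The log2 fold change was -0.08 for shRad21_2 (SE 0.23, edgeR adjusted p = 0.802) and 0.54 for shRad21_1 (SE 0.23, edgeR adjusted p = 0.167). Between the hairpins it was -0.62 (SE 0.23, edgeR adjusted p = 0.0726). It was -0.67 with both libraries that stood apart set aside (edgeR adjusted p = 0.0185), a fit with only the close pairs in shNT and shRad21_1. Without shNT replicate 1 alone it was -0.62 (edgeR adjusted p = 0.0270), and without shRad21_2 replicate 1 it was -0.84 (edgeR adjusted p = 0.0384). DESeq2 called it between the hairpins as well (-0.62, adjusted p = 0.0272).

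**Figure D2:**
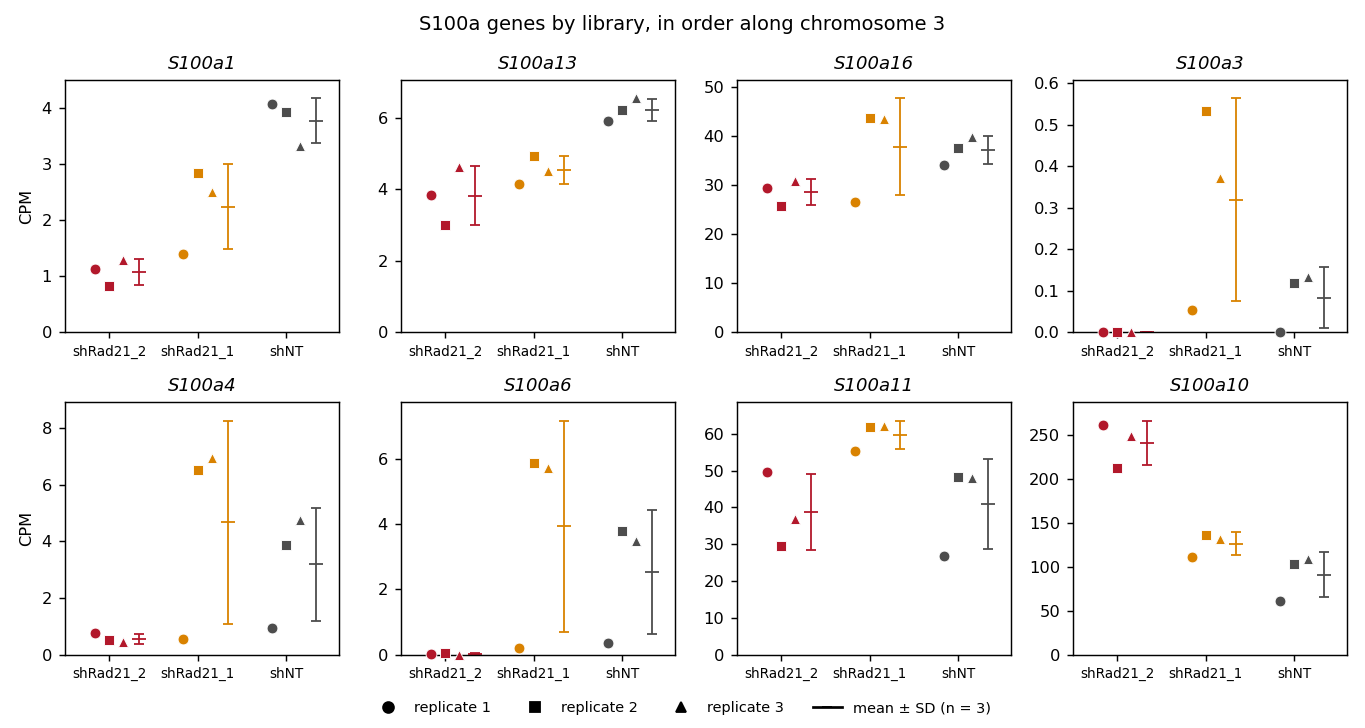
CPM of each S100a gene in each library, shown for shRad21_2, shRad21_1 and shNT, with symbols for the replicates and the mean ± SD (n = 3) beside them; each panel starts at 0. S100a10 is highest with shRad21_2 (212 to 261 CPM), while S100a4 and S100a6 are low in all shRad21_2 libraries and in replicate 1 of shRad21_1 and of shNT.

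S100a6, also called calcyclin, is a growth-induced protein that binds CacyBP and annexins. Its counts nearly vanished under shRad21_2, with 1, 2 and 0 counts, while shRad21_1 libraries held 7, 221 and 216 counts and shNT libraries 13, 161 and 157. In CPM this was 0.0221, 0.0587 and 0 with shRad21_2, 0.190, 5.90 and 5.74 with shRad21_1, and 0.357, 3.80 and 3.48 with shNT. Every shRad21_2 library was below every other library, but replicate 1 of shRad21_1 and of shNT was also low, and replicates 2 and 3 averaged 30.6 and 10.2 times that library in their groups. The ratio of summed counts of shRad21_2 to shNT was 0.00982 (exact Clopper-Pearson interval 0.00201 to 0.0289, confidence level 0.95, counting error only).

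The fitted log2 fold change of S100a6 was -6.44 for shRad21_2 against shNT (SE 1.62, edgeR adjusted p = 0.00977) and -7.06 against shRad21_1 (SE 1.60, edgeR adjusted p = 0.0107). It was 0.62 for shRad21_1 against shNT (SE 0.92, edgeR adjusted p = 0.721). S100a6 passed the filter on low counts only through shRad21_1 and shNT libraries, and it was not tested in a fit of only the 2 hairpin groups. Its values and calls for shRad21_2 therefore describe the near absence of counts and give no further support. With both libraries that stood apart set aside, the 3 fold changes of S100a6 were -6.95 (edgeR adjusted p = 2.17e-06), -7.63 (1.67e-06) and 0.68 (0.0789). Without shRad21_2 replicate 2, the values for shRad21_2 were -7.36 against shNT and -7.98 against shRad21_1. Limma-voom called neither, with -5.81 (adjusted p = 0.113) against shNT and -5.89 (adjusted p = 0.144) against shRad21_1.

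S100a4, which binds the heavy chain of non-muscle myosin and is used as a marker of fibroblasts, had a like order of libraries. It stood at 0.753, 0.499 and 0.428 CPM with shRad21_2, at 0.544, 6.54 and 6.97 CPM with shRad21_1, and at 0.935, 3.87 and 4.77 CPM with shNT. All shRad21_2 libraries were below all shNT libraries. Replicate 1 of shRad21_1 fell within the range of shRad21_2, and replicates 2 and 3 of that group averaged 12.4 times replicate 1, against 4.62 times in shNT. S100a4 fell by 2.49 on the log2 scale under shRad21_2 (SE 0.85, edgeR adjusted p = 0.0378) and had a value of 0.55 under shRad21_1 (SE 0.74, edgeR adjusted p = 0.693). It was lower with shRad21_2 than with shRad21_1 by a log2 fold change of -3.04 (SE 0.86, edgeR adjusted p = 0.0276).

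The S100a4 calls ended in many of the fits with 1 library left out, with the value still well below 0, and depended on the test. Against shNT, the call of shRad21_2 was lost without shNT replicate 2 (-2.34, edgeR adjusted p = 0.0898), without shNT replicate 3 (-2.09, 0.115), and without shRad21_2 replicate 1 (-2.78, 0.0763), 2 (-2.41, 0.103) or 3 (-2.34, 0.114). It was called in 11 of 19 alternatives (10 other settings and 9 libraries left out in turn). It was also lost by limma-voom (-2.26, adjusted p = 0.186), with the replicate block (-2.06, edgeR adjusted p = 0.0524) and with close pairs of libraries summed (-2.25, edgeR adjusted p = 0.103). Between the hairpins the call was lost without shRad21_1 replicate 2 (-2.72) or 3 (-2.64) or any shRad21_2 library (-3.33, -2.96 and -2.88), by limma-voom (-2.39, adjusted p = 0.204) and with close pairs summed (-2.71, edgeR adjusted p = 0.0998). With both libraries that stood apart set aside, S100a4 was -2.91 for shRad21_2 against shNT (edgeR adjusted p = 1.82e-05) and -3.55 against shRad21_1 (edgeR adjusted p = 1.01e-05). That fit had only the close pairs in shNT and shRad21_1, so these small p-values can reflect technical closeness. A gene annotated across S100a3 and S100a4 (Gm42674) shares 302 of the 584 exonic bases of S100a4, and it has no row in the count table.

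Of 8 mesenchymal markers, 3 were tested, and Acta2 and Pdgfrb fell under shRad21_2 (where 43.6% of all genes were called, 22.5% lower), while Col1a1 had a value of -1.04 with groups that overlapped (edgeR adjusted p = 0.135). With shRad21_2, Acta2 had 7, 3 and 7 counts and Pdgfrb 3, 1 and 3. Both passed the filter on low counts only through shRad21_1 and shNT libraries. Their calls therefore describe these low counts and give no further support. The summed level of the list was 0.381 to 0.742 CPM with shRad21_2, 4.13 to 9.98 CPM with shRad21_1 and 2.42 to 5.03 CPM with shNT, lowest in replicate 1 of both shRad21_1 and shNT. Acta2, smooth muscle actin, held most of it, at 0.155, 0.0880 and 0.200 CPM with shRad21_2, 3.59, 8.86 and 8.62 CPM with shRad21_1 and 1.65, 3.71 and 3.90 CPM with shNT. Pdgfrb did not follow that order of libraries in shNT, where replicate 1 was the highest (0.385, 0.354 and 0.200 CPM). Dcn, a defining marker of fibroblasts, was at 0 in all 9 libraries, Lum had 3 counts and Postn 8 in all of them together. Of 9 astrocyte markers, 8 were tested and 7 fell under shRad21_2 (87.5%, where 22.5% of all genes were lower), with a summed level of the list of 735 to 795 CPM with shRad21_2, 1123 to 1953 CPM with shRad21_1 and 2066 to 2159 CPM with shNT, lowest of shRad21_1 in replicate 1. Slc1a3 held most of this sum, at 585, 1055 and 1129 CPM on average in the same order of groups, while Gfap averaged 7.90 and Aqp4 2.69 CPM with shNT. With shRad21_2, Gfap had 0, 1 and 3 counts and Aqp4 4, 3 and 2. Of the 7 called astrocyte markers, Gfap and Aqp4 passed the filter only through shRad21_1 and shNT libraries, so their calls carry the same limit. The part of the mesenchymal and astrocyte markers in the S100a results was not tested. In such bulk libraries, fewer cells of a type and less RNA per cell cannot be told apart.

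The genes nearest to S100a6 in their profile over the 9 libraries were collagen VI genes. Likeness was the root mean square distance between log2 CPM values centred on each gene's mean. S100a6 and S100a4 were added to this comparison after their values were seen. The nearest of 13552 genes to S100a6 were Col6a1 (distance 0.421), Col6a2 (0.823) and Col6a3 (0.905), with a median distance of 2.70 over all genes. Col6a1 stood at 0.797, 1.06 and 0.942 CPM with shRad21_2, at 6.55, 109 and 114 CPM with shRad21_1, and at 5.77, 73.2 and 71.2 CPM with shNT. The same 2 first libraries were low in it. The nearest genes to S100a4 were Ecm1 (0.372), a matrix glycoprotein gene that also lies on chromosome 3, Ecel1 (0.510) and Cartpt (0.516), with a median distance of 1.57.

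**Figure D3:**
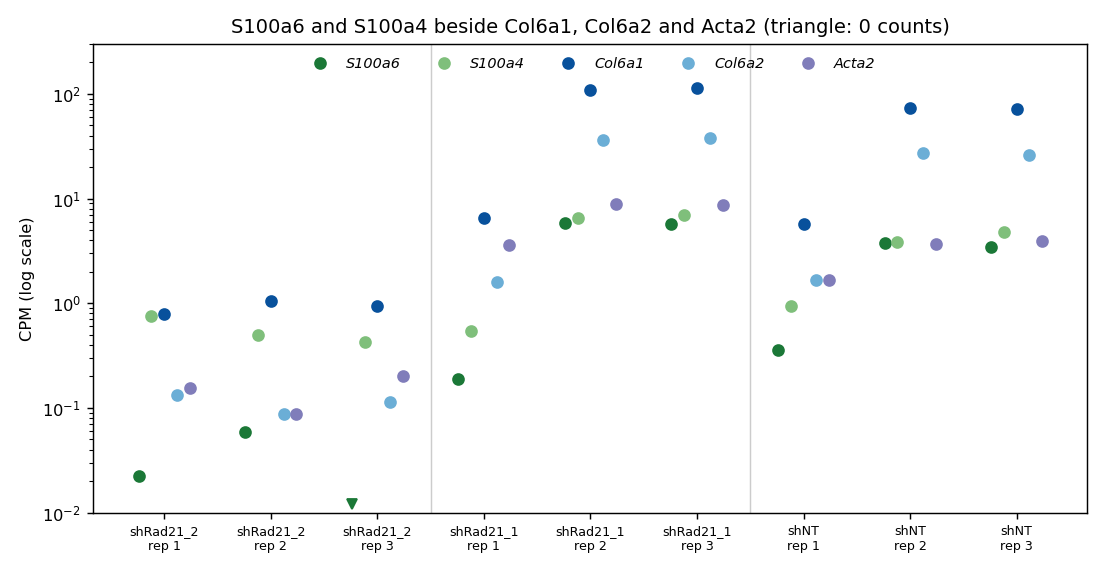
CPM on a log scale of S100a6, S100a4, Col6a1, Col6a2 and Acta2 in each of the 9 libraries, grouped as shRad21_2, shRad21_1 and shNT; a triangle marks 0 counts. All 5 genes are low with shRad21_2, and replicate 1 of shRad21_1 and of shNT is below the other replicates of its group for each.

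S100a1 and S100a13, the divergent pair at the proximal end of the cluster, both fell under shRad21_2. S100a1 is best known from heart and muscle, where it binds the ryanodine receptor. It stood at 1.13, 0.821 and 1.28 CPM with shRad21_2, at 1.39, 2.83 and 2.50 CPM with shRad21_1, and at 4.07, 3.92 and 3.33 CPM with shNT. The 3 groups did not overlap. The log2 fold change of S100a1 under shRad21_2 was -1.80 (SE 0.29, edgeR adjusted p = 8.80e-04), called in 19 of 19 alternatives. Under shRad21_1 its value was -0.75 (SE 0.27, edgeR adjusted p = 0.112).

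Between the hairpins S100a1 differed by a log2 fold change of -1.05 (SE 0.29, edgeR adjusted p = 0.0248). That call was lost without shRad21_1 replicate 2 (-0.85, edgeR adjusted p = 0.0975) or 3 (-0.96, 0.0798) and without shRad21_2 replicate 1 (-1.08, 0.0556) or 2 (-0.89, 0.0700), as well as with close pairs summed (-0.92, edgeR adjusted p = 0.123) and in a fit of only the 2 hairpin groups (-1.06, edgeR adjusted p = 0.0677). S100a13, which takes part in the release of FGF1 and interleukin 1 alpha outside the classical secretion route, changed less. It stood at 3.85, 2.99 and 4.62 CPM with shRad21_2, at 4.16, 4.94 and 4.52 CPM with shRad21_1, and at 5.91, 6.21 and 6.54 CPM with shNT. Both hairpin groups lay below shNT and overlapped each other. S100a13 fell by 0.70 on the log2 scale under shRad21_2 (SE 0.17, edgeR adjusted p = 0.00918), and its value was -0.45 under shRad21_1 (SE 0.17, edgeR adjusted p = 0.128). The value between the hairpins was -0.25 (SE 0.18, edgeR adjusted p = 0.326).

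S100a16 lies inside the proximal block, between S100a13 and S100a3, and is among the most widely expressed of the family. Its level was 29.4, 25.7 and 30.9 CPM with shRad21_2, 26.6, 43.7 and 43.5 CPM with shRad21_1, and 34.2, 37.6 and 39.9 CPM with shNT. All shRad21_2 libraries were below all shNT libraries, and replicate 1 of shRad21_1 lay among shRad21_2. Its log2 fold change of -0.38 under shRad21_2 (SE 0.17, edgeR adjusted p = 0.104) did not pass, but did in 3 of 19 alternatives. These were without shRad21_1 replicate 1 (-0.37, edgeR adjusted p = 0.00737), with only shRad21_2 and shNT fitted (-0.38, 0.0172), and with both libraries that stood apart set aside (-0.43, 0.00519). Between the hairpins it was -0.40 (SE 0.17, edgeR adjusted p = 0.113) and passed in 2 of 19 alternatives. These were without shRad21_1 replicate 1 (-0.60, edgeR adjusted p = 0.00168) and with both libraries that stood apart set aside (-0.60, 0.00154). Under shRad21_1 it was 0.03 (SE 0.17, edgeR adjusted p = 0.945), with either sign over the alternatives.

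S100a3, known from the hair cuticle, did not pass the filter on low counts and was not tested in the reported fit. It had 0 counts in all 3 shRad21_2 libraries, 2, 20 and 14 counts with shRad21_1, and 0, 5 and 6 counts with shNT. Replicate 1 was again the lowest library of shRad21_1 and of shNT. The ratio of summed counts of shRad21_2 to shRad21_1 was 0, with an exact Clopper-Pearson interval of up to 0.106, and that of shRad21_2 to shNT was 0, with an interval of up to 0.432. The ratio of shRad21_1 to shNT was 3.62 (interval 1.80 to 7.89). These intervals cover counting error only. In some alternatives S100a3 passed the filter through the groups where it had counts, so its calls there are not read as results.

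Levels of different genes were compared as CPM per kilobase of annotated exon. With shRad21_2 the order was S100a10 (198 ± 21.0), S100a11 (75.8 ± 20.0), S100a16 (17.7 ± 1.63), S100a13 (5.35 ± 1.14), S100a1 (1.55 ± 0.340), S100a4 (0.959 ± 0.293) and S100a6 (0.0197 ± 0.0217), with S100a3 at 0 (SD, n = 3). Of these neighbours in level, S100a1 and S100a4 overlapped. With shRad21_1, the libraries of S100a11 (117 ± 7.64) and S100a10 (104 ± 10.8) overlapped, S100a16 stood at 23.4 ± 6.07, and S100a4 (8.02 ± 6.15) overlapped S100a13 (6.35 ± 0.544), S100a1 (3.23 ± 1.09) and S100a6 (2.89 ± 2.38). With shNT, S100a11 (80.1 ± 24.1) and S100a10 (75.0 ± 21.5) overlapped, followed by S100a16 (23.0 ± 1.75), S100a13 (8.70 ± 0.441), S100a4 (5.46 ± 3.43), S100a1 (5.43 ± 0.566) and S100a6 (1.86 ± 1.39). The shNT libraries of S100a4 overlapped those of S100a1 and of S100a6. S100a10 thus stood clear of S100a11 per kilobase with shRad21_2, while these 2 genes overlapped with shRad21_1 and with shNT.

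For the 4 members with the highest mean CPM, the nearest profiles among genes outside the family were found in the same way. Those nearest to S100a10 were Tmsb10, an actin-binding thymosin (distance 0.193), Cebpa, a transcription factor (0.217), and Gadd45a, a stress-response gene (0.229), against a median of 0.679. Tmsb10 stood at 2599 CPM on average with shRad21_2, 1388 with shRad21_1 and 1058 with shNT. S100a11 was nearest to H2-DMa (0.155), Npdc1 (0.194) and Bmp2 (0.199), against a median of 0.490. S100a16 was nearest to Zfp612 (0.0654), Adam15 (0.0743) and Macrod1 (0.0746), against 0.375, and S100a13 to Acadvl (0.111), Mpc1 (0.112) and Gpx4 (0.117), against 0.425. Acadvl and Mpc1 act in mitochondrial fuel use, and Gpx4 reduces lipid peroxides.

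Around the blocks, within 500 kb, the table had 38 other genes, of which 17 were tested, all beside the proximal block. In the distal block's window only Flg2 and Tchh, epidermal genes, had any counts (3 and 46 in all 9 libraries together). Under shRad21_2, 4 neighbours rose and 3 fell (41.2% of 17, where 43.6% of all genes were called), with a median of 0.12 on the log2 scale. Under shRad21_1 none rose and 3 fell (17.6%, where 9.82% of all genes were called), with a median of 0.05. Between the hairpins 2 were higher and 3 lower with shRad21_2 (29.4%, where 26.3% of all genes were called).

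Npr1, the receptor of atrial natriuretic peptide, was the neighbour with the largest change. It lies 45.2 kb from the proximal block and stood at 3.17, 4.43 and 3.94 CPM with shRad21_2, at 5.22, 7.47 and 7.77 CPM with shRad21_1, and at 18.5, 25.0 and 24.2 CPM with shNT. The 3 groups did not overlap. Its log2 fold change was -2.56 under shRad21_2 (SE 0.20, edgeR adjusted p = 1.51e-05) and -1.73 under shRad21_1 (SE 0.19, edgeR adjusted p = 0.00103), each called in 19 of 19 alternatives. Between the hairpins it was -0.83 (SE 0.20, edgeR adjusted p = 0.0132) and was no longer called without shRad21_1 replicate 3 (-0.73, edgeR adjusted p = 0.0513).

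Other neighbours changed less. Slc39a1, a zinc transporter, was lower under both hairpins, with log2 fold changes of -0.64 (shRad21_2, edgeR adjusted p = 1.59e-04) and -0.29 (shRad21_1, edgeR adjusted p = 0.0384), and Snapin, a SNARE-associated protein, fell by 0.54 under shRad21_2. Crtc2, a CREB coactivator, rose by 0.53 under shRad21_2, Ilf2 by 0.46, Tpm3, a tropomyosin, by 0.41 and Ubap2l by 0.28. Rab13, a small GTPase, fell by 0.55 under shRad21_1 (edgeR adjusted p = 0.0347). Between the hairpins the called neighbours were Npr1, Slc39a1 (-0.35), Snapin (-0.40), Ilf2 (0.41) and Tpm3 (0.27). Chtop, 1.54 kb from the block and its nearest tested neighbour, had values of 0.06 under shRad21_2 (edgeR adjusted p = 0.545) and 0.02 under shRad21_1 (edgeR adjusted p = 0.904).

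Several of these calls ended when 1 library was left out, in some cases with the value hardly changed. Such a loss does not by itself show that a call rested on that library. Under shRad21_1, leaving out each shNT library (-0.32, -0.31 and -0.25) or each shRad21_1 library (-0.23, -0.33 and -0.32) ended the call of Slc39a1. Rab13 was not called without shNT replicate 2 (-0.49) or 3 (-0.53) or shRad21_1 replicate 2 (-0.61) or 3 (-0.62). Crtc2 was not called under shRad21_2 when shNT replicate 2 (0.51) or 3 (0.475) was left out. Snapin was not called between the hairpins when shRad21_1 replicate 2 (-0.39) or 3 (-0.38) or shRad21_2 replicate 2 (-0.35) or 3 (-0.40) was left out. Ubap2l had an edgeR adjusted p of 0.0454 under shRad21_2 and was called in 7 of 19 alternatives, and it was lost with each shNT library (0.30, 0.28 and 0.25), shRad21_1 replicate 2 (0.28) or 3 (0.28), or shRad21_2 replicate 1 (0.14) left out. Tpm3 had an edgeR adjusted p of 0.0485 between the hairpins and was called in 6 of 19, and it was lost with each shNT library (0.27 each time), shRad21_1 replicate 2 (0.26) or 3 (0.26), or shRad21_2 replicate 1 (0.19) or 3 (0.26) left out.

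**Figure D4:**
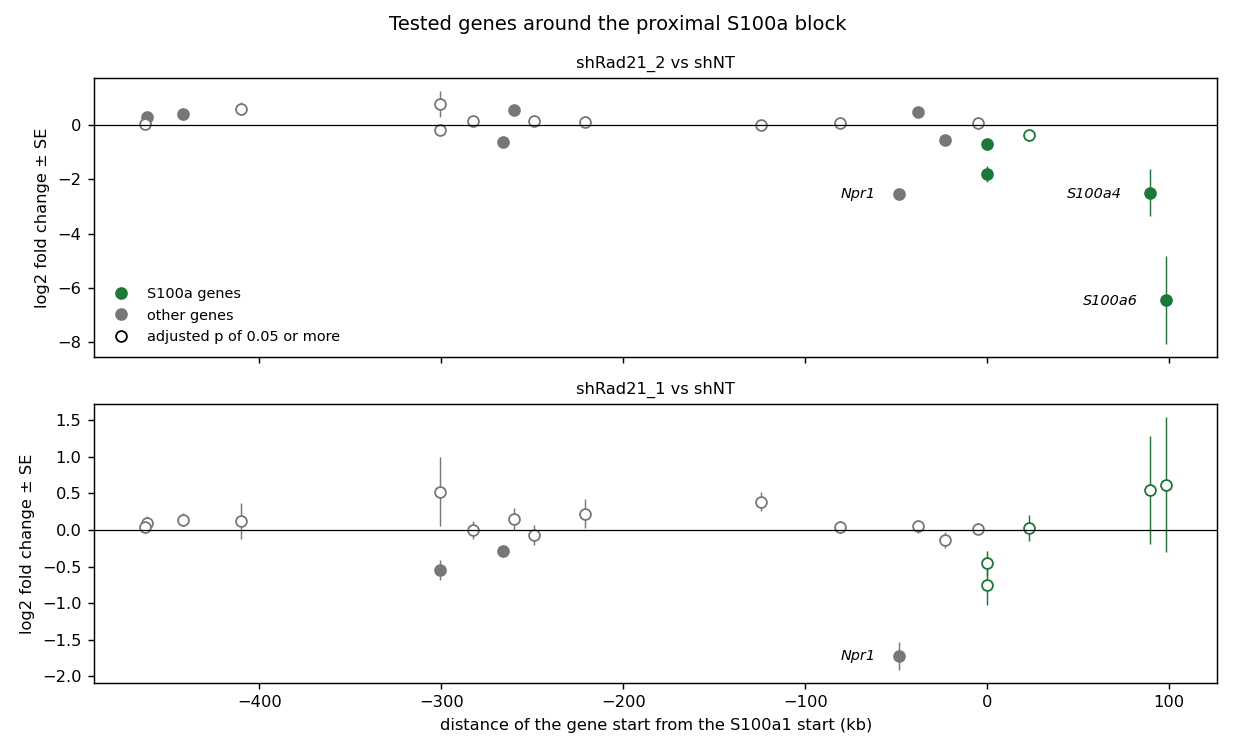
Log2 fold change with SE of the tested genes within 500 kb of the proximal S100a block against the distance of each gene's start from that of S100a1, in kb, for shRad21_2 (upper panel) and shRad21_1 (lower panel), each against shNT. Green points are S100a genes, and filled points have an edgeR adjusted p under 0.05; S100a4 (-2.49), S100a6 (-6.44) and Npr1 (-2.56) lie lowest under shRad21_2, and Npr1 (-1.73) under shRad21_1.

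The partners of S100 proteins were followed in a list of 12 annexins and 18 other binding partners or receptors, of which 26 of 30 were tested. Under shRad21_2, 5 rose and 5 fell (38.5%, where 43.6% of all genes were called), with a median of 0.05. Under shRad21_1, 5 rose and 2 fell (26.9%, where 9.82% of all genes were called), with a median of 0.06. Between the hairpins, 5 were higher and 5 lower with shRad21_2 (38.5%, where 26.3% of all genes were called).

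Annexins bind membranes in the presence of calcium, and 4 of the 9 tested fell under shRad21_2 while 1 rose (55.6%, where 43.6% of all genes were called). Anxa2, the partner of S100a10, stood at 41.9, 25.3 and 33.1 CPM with shRad21_2, at 22.2, 50.3 and 50.5 CPM with shRad21_1, and at 37.2, 48.3 and 51.8 CPM with shNT. The groups overlapped, and Anxa2 was not called (-0.45 under shRad21_2, SE 0.29, edgeR adjusted p = 0.233; -0.16 under shRad21_1, adjusted p = 0.778). Anxa1, the partner of S100a11, had a log2 fold change of -1.29 under shRad21_2 (SE 0.33, edgeR adjusted p = 0.0114), and leaving out shNT replicate 3 ended that call (-1.11, edgeR adjusted p = 0.0512).

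Anxa3 fell the most, to 1.16 ± 0.166 CPM with shRad21_2 and 4.75 ± 1.03 with shRad21_1, against 9.51 ± 0.938 with shNT (n = 3 each). Its log2 fold change was -3.04 under shRad21_2 (SE 0.20, edgeR adjusted p = 6.17e-06) and -1.0 under shRad21_1 (SE 0.18, edgeR adjusted p = 0.00939). The shRad21_1 call ended when shNT replicate 3 was left out (-0.94, edgeR adjusted p = 0.0512). Under shRad21_2 Anxa5 had a log2 fold change of -1.35 and Anxa7 of -1.02, while Anxa6, which also binds S100 proteins, rose by 0.90 (SE 0.15, edgeR adjusted p = 0.00118) to 602 ± 64.2 CPM, against 323 ± 3.12 with shNT (n = 3 each).

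Of the 17 other partners tested, 4 rose and 1 fell under shRad21_2 (29.4%, where 43.6% of all genes were called). Cacybp, which encodes the S100A6-binding protein CacyBP, stood at 277 ± 19.7 CPM with shRad21_2, 205 ± 15.1 with shRad21_1 and 172 ± 13.2 with shNT (n = 3 each). Its log2 fold change was 0.69 under shRad21_2 (SE 0.09, edgeR adjusted p = 2.40e-04) and 0.26 under shRad21_1, where it was not called (SE 0.09, edgeR adjusted p = 0.0941). Myh10, a non-muscle myosin heavy chain, rose under both, with log2 fold changes of 1.06 (shRad21_2, SE 0.13, edgeR adjusted p = 1.99e-04) and 0.53 (shRad21_1, SE 0.13, edgeR adjusted p = 0.0300). Myh9, the myosin bound by S100a4, was not called (0.18 and 0.19; edgeR adjusted p = 0.287 and 0.396). The phosphatase gene Ppp5c rose by 0.43 and Plat, tissue plasminogen activator, by 0.36 under shRad21_2, and Plat by 0.34 under shRad21_1.

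Iqgap1, a scaffold protein, was lower with both hairpins, with log2 fold changes of -0.85 under shRad21_2 and -0.70 under shRad21_1. Ppfibp1, a liprin bound by S100a4, rose by 0.49 under shRad21_1. Syt1, synaptotagmin 1, a partner of S100a13 in FGF1 release, rose by 2.65 under shRad21_1 (SE 0.46, edgeR adjusted p = 0.00775), where replicate 1 held 97.8 CPM and replicates 2 and 3 held 26.5 and 25.6. Without that first library the value was 1.71. Ahnak, bound by S100a10 with annexin A2, had few counts, 24, 46 and 51 with shRad21_1 and 15, 8 and 15 with shNT. It rose by 1.79 under shRad21_1 (SE 0.49, edgeR adjusted p = 0.0466), and was 1.83 with the replicate block, where it was no longer called (edgeR adjusted p = 0.0648). Stk38, a kinase bound by S100b, was -0.27 there and not called (edgeR adjusted p = 0.0750), but was called with the block (-0.27, edgeR adjusted p = 0.0484), by DESeq2 and without shRad21_1 replicate 1 (-0.34). Fgf1 itself and Ager, the RAGE receptor, were not called in either comparison with shNT (edgeR adjusted p = 0.158 and 0.863 under shRad21_2, 0.152 and 0.951 under shRad21_1).

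Among these calls under shRad21_1, that of Ahnak ended with each shNT library left out (2.03, 1.53 and 1.85), with shRad21_1 replicate 2 (1.69) or 3 (1.59) left out, and with shRad21_2 replicate 2 left out (1.79). That of Myh10 ended with shNT replicate 2 (0.45) or 3 (0.47) or each shRad21_1 library (0.45, 0.57 and 0.58) left out. Ppfibp1 was no longer called with each shNT library left out (0.47, 0.52 and 0.50), nor Plat with shNT replicate 2 (0.33) or 3 (0.32) left out. Between the hairpins, the partners higher with shRad21_2 were Anxa6 (0.74), Myh10 (0.52), Stk38 (0.45), Cacybp (0.43) and Ppp5c (0.37), and those lower were Syt1 (-2.33), Anxa3 (-2.04), Ahnak (-2.03), Anxa1 (-1.59) and Anxa5 (-1.33). Of these, Syt1 was -1.39 without shRad21_1 replicate 1. Ahnak was -2.73 without shRad21_2 replicate 1, and was not called without shRad21_1 replicate 2 (-1.93) or 3 (-1.83) or shRad21_2 replicate 3 (-1.69). Myh10 was not called without shRad21_1 replicate 2 (0.48) or 3 (0.48).

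**Figure D5:**
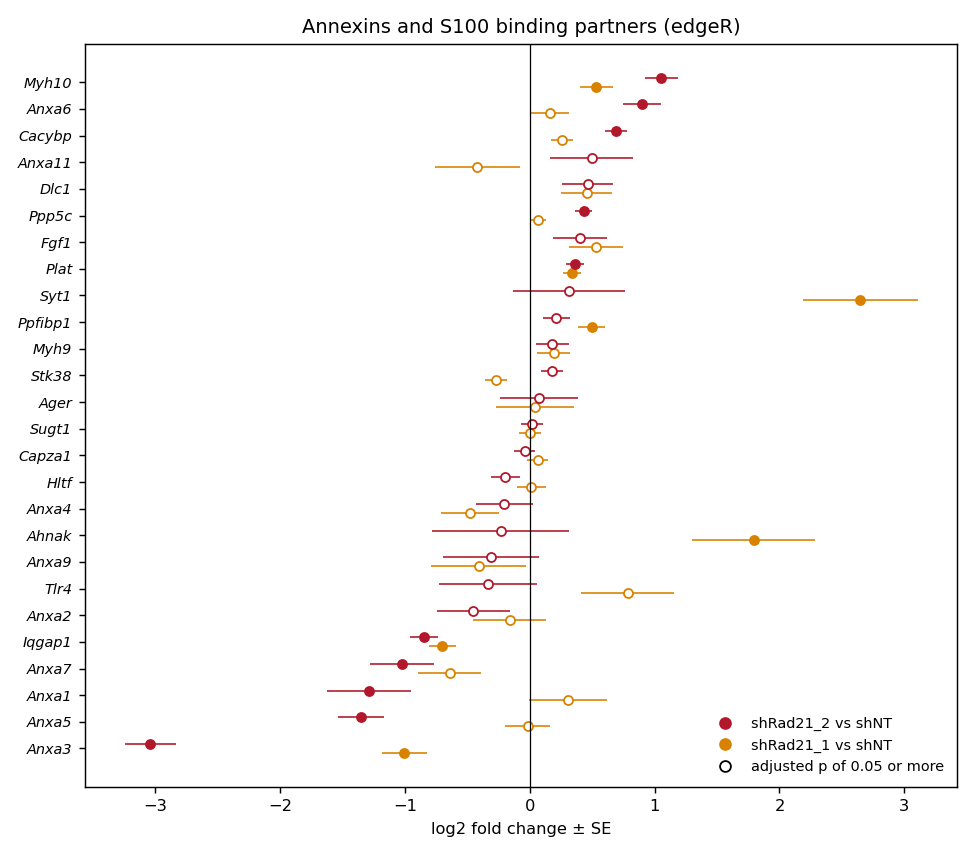
Log2 fold change with SE of 26 tested annexins and S100 partners for shRad21_2 and shRad21_1, each against shNT, ordered by the value under shRad21_2. Filled points have an edgeR adjusted p under 0.05; Anxa3 lies lowest (-3.04) and Myh10 highest (1.06) under shRad21_2, and Syt1 highest (2.65) under shRad21_1.

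S100b, the glial member of the family on chromosome 10, was lower under shRad21_2. It stood at 1.62, 0.675 and 0.685 CPM with shRad21_2, at 4.08, 3.55 and 3.17 CPM with shRad21_1, and at 8.11, 5.19 and 4.57 CPM with shNT. The groups did not overlap. Its log2 fold change was -2.55 under shRad21_2 (SE 0.36, edgeR adjusted p = 3.98e-04) and -0.73 under shRad21_1, where it was not called (SE 0.32, edgeR adjusted p = 0.188). Between the hairpins it was -1.83 (edgeR adjusted p = 0.00558). The other S100 symbols examined, S100g and S100z, had 0 counts in all 9 libraries.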

How the data were processed

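Per the submitters' processing notes, the authors trimmed reads with cutadapt and Trim Galore, checked them with FastQC, aligned them with Bowtie2 to mm10 and quantified genes with RSEM. Versions, annotation, strand setting and rounding: not given in the sources used here. Deposited values are raw whole-number counts per gene symbol for 9 libraries, 3 per group. Without strand information, reads of genes that overlap on opposite strands cannot be told apart. Strand would not separate S100a3 and S100a4 from Gm42674, which all lie on the plus strand. S100a3 shares 144 exonic bases with Gm42674.

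All libraries entered 1 edgeR 4.0.16 fit (R 4.3.3) of 3 group means after filterByExpr on the groups and TMM scaling (13560 genes); quasi-likelihood tests were two-sided with Benjamini-Hochberg adjustment over all genes, called under 0.05. The SE is the log2 fold change divided by the root of the F statistic. The procedure was tested on simulated data. Profiles used log2 CPM with a prior count of 2. Alternatives were DESeq2 1.42.0 (size factors, Wald test), limma 3.58.1 (voom), other scaling, filters and samples, a replicate block, summed close pairs, and each library left out. Gene positions came from GENCODE M21, matched by symbol.

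The labels give no pairing of libraries between groups. Same-numbered libraries of shRad21_1 and shNT had deviations with correlations of 0.242, 0.116 and 0.117, and the other same-numbered pairs lay between 0.0174 and 0.0886. For shRad21_1 and shNT only 2 of 6 libraries correlated best with their own number, so the numbers do not establish a pairing.

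Named genes were all members, S100b and Rad21, the 5 higher and 5 lower called neighbours and partners with the largest change in each comparison, and the 3 nearest profiles of 4 members. Genes named outside this rule (Chtop, Anxa2, Myh9, Fgf1, Ager, Flg2, Tchh, and the genes nearest to S100a4 and S100a6) and the values of cell type markers were taken after values were seen. The members and lists were chosen with earlier results of these data known. Endothelial, microglial, ependymal and neuronal marker sums were 7.56 to 9.74, 0.343 to 0.763, 4.37 to 7.55 and 940 to 1071 CPM with shRad21_2, 6.83 to 14.9, 1.38 to 2.47, 13.6 to 15.6 and 875 to 937 CPM with shRad21_1, and 7.73 to 8.85, 1.82 to 3.16, 33.4 to 39.6 and 753 to 898 CPM with shNT. The neuronal sum was mostly Map2, at 989 CPM with shRad21_2 and 793 with shNT. Under shRad21_2, edgeR called Map2 higher (0.32) and Dcx (-2.81), Rbfox3 (-1.29) and Snap25 (-3.03) lower, 80% of 5 tested. It called 1 gene lower in each other list: Kdr (-1.56) of 3 tested endothelial, P2ry12 (-2.37) of 1 microglial and Foxj1 (-2.695) of 2 ependymal markers. Of all genes, 43.6% were called. Snap25 had 8, 1 and 1 counts with shRad21_2 and passed the filter on low counts only through shRad21_1 and shNT libraries. Its call therefore describes these low counts and gives no further support.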

Additional observations from a re-analysis of the deposited data

How the results depend on the processing

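Over 19 alternatives, S100a10 and S100a1 kept their calls under shRad21_2 in all, S100a6 in 18 and S100a13 in 18 (lost with close pairs summed), and no tested member was called under shRad21_1 in any. With close pairs of libraries summed, calls over all genes were 3707 for shRad21_2 against shNT (5917 in the reported fit), 130 for shRad21_1 (1331) and 1270 between the hairpins (3563). Members called were then 3 (5), 0 and 2 (4), partners 1 under shRad21_1 (7) and 4 between the hairpins (10), and neighbours 1 under shRad21_1 (3) and 0 between the hairpins (5, where the adjusted p of each missed 0.05). Limma-voom called 3 members for shRad21_2 and 2 between the hairpins. The DESeq2 Wald test called 2042 genes for shRad21_1, and a fit of only the 2 hairpin groups called 2233 genes. With replicate 1 of both shNT and shRad21_1 set aside, 6 of the 7 members tested in the reported fit were called for shRad21_2 against shNT (48.4% of all genes) and 6 of 7 between the hairpins (34.6%). S100a3 brought each count to 7, but it passed the filter there only through the groups where it had counts, so its call is not a result. S100a6, 1 of the 6 in each, passed the filter in the same way, and its calls carry the same limit. With windows of 200 kb and 1 Mb, called neighbours were 3 of 7 and 13 of 35 tested for shRad21_2 (42.9% and 37.1%, where 43.6% of all genes were called), 1 and 5 for shRad21_1 (14.3% each, where 9.82% were), and 3 and 9 between the hairpins (42.9% and 25.7%, where 26.3% were).

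With each library left out, calls ranged from 4263 to 6858 genes for shRad21_2, from 460 to 1599 for shRad21_1 and from 2045 to 4486 between the hairpins. Neighbours ranged from 1 to 4 for shRad21_1 and from 2 to 6 between the hairpins, partners from 2 to 8 for shRad21_1, and members from 4 to 7 for shRad21_2 and from 2 to 6 between the hairpins (4 to 6 and 2 to 5 without S100a3). The cause of these shifts was not tested.

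With the replicate block, shRad21_1 against shNT had 1436 genes called. Ahnak and Stk38 changed their call there, and no other did among the tested members, S100b, Rad21 and the leading called neighbours and partners. In each comparison the libraries are known to share only a number. Each of 6 libraries correlated best with its own number for shRad21_2 and shNT, 2 of 6 for shRad21_1 and shNT, and 2 of 6 between the hairpins. In the 2 comparisons with shRad21_2 the block gave 6066 genes and 4 members for shRad21_2 (S100a4 -2.06, edgeR adjusted p = 0.0524) and 3643 genes and 4 members between the hairpins, with Rab13 (0.36) and Crtc2 (0.36) called and Tpm3 (0.27) not.

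Signs turned only for values that were not called. S100a16 under shRad21_1 was -0.0096 by limma-voom and -0.055 with close pairs summed, and ranged from -0.087 to 0.23 with each library left out. S100a11 under shRad21_2 was 0.047 with close pairs summed and ranged from -0.31 to 0.084. Anxa5 under shRad21_1 was 0.0059 by limma-voom and 0.047 with close pairs summed and ranged from -0.19 to 0.093. Anxa6 under shRad21_1 was -0.065 with both replicates 1 set aside and ranged from -0.059 to 0.27. Ahnak under shRad21_2 was 0.019 with both set aside and ranged from -0.94 to 0.099. Plat between the hairpins was -0.034 on library totals and -0.0091 with close pairs summed and ranged from -0.0099 to 0.091. At these depths S100a3 did not pass the filter of the reported fit, and S100a6 rested on 3 counts with shRad21_2.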
